A study of Mus musculus with 2 samples.

Results

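The two-pore-domain potassium channels (K2P channels) of the mouse adrenal gland are described here through 10 genes, Kcnk1, Kcnk2, Kcnk3, Kcnk4, Kcnk5, Kcnk6, Kcnk9, Kcnk10, Kcnk12 and Kcnk13. They were chosen by symbol, and all 10 were found among the 55536 annotated genes of the tables, 22015 of which were nuclear and protein-coding. The tissue was the adrenal gland of B6CASTF1/J females, hybrids from crossing C57BL/6J with CAST/EiJ, obtained from The Jackson Laboratory and aged 36 days, and the assay was total RNA-seq. The 2 libraries, replicates 1 and 2 of the only group, each started from 300 ng of RNA, and ERCC spike-ins were added. The kit was directional and followed ribosomal RNA reduction. The sample characteristics number the animals 03 and 04, but both library descriptions say Female 03 and both libraries carry the same donor identifier. The descriptions also number the libraries as biological replicates 1 and 2. An SD over the libraries (n = 2) may still be technical if both came from 1 animal. Every difference between replicates below compares 2 libraries, without a replicate check or a p-value.

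K2P channels carry the background, or leak, potassium current that holds resting cells at a negative membrane potential. Each subunit has 2 pore loops, so 2 subunits build a pore, and each loop holds a selectivity filter whose short glycine-rich stretch lets potassium pass. In the adrenal cortex the acid-sensitive TASK channels keep aldosterone-producing glomerulosa cells hyperpolarised, and angiotensin II closes them through Gq signalling. The mechanosensitive and lipid-sensitive TREK channels have been studied in cortisol-producing cells of other species.

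The filters of the 4 members that were detected at 1 TPM or more (TPM, the deposited level scaled for transcript length and library) show what these genes share and where they differ. Each line gives 30 coding bases, 5′ to 3′ on the coding strand, from the GENCODE M21 transcripts (mm10), and the capitals mark the 3 filter codons.
Kcnk3-201, the first filter: atcaccaccatcGGCTATGGTcatgcggcg
Kcnk3-201, the second filter: ctcaccaccatcGGCTTCGGCgactatgtg
Kcnk9-201, the first filter: atcacaactatcGGATATGGAcatgctgca
Kcnk9-201, the second filter: ttgactactataGGGTTCGGCgattttgtg
Kcnk2-201, the first filter: atcacaaccataGGATTTGGAaacatctcc
Kcnk2-201, the second filter: ctgacgaccattGGATTTGGAgactacgtg
Kcnk5-201, the first filter: atcaccaccatcGGTTATGGCaatgtggct
Kcnk5-201, the second filter: atctccaccattGGCTTTGGGgactttgtg
The second-filter windows lie within 1 exon each, at chr5:30622196-30622225 (+) for Kcnk3, chr15:72512710-72512739 (−) for Kcnk9, chr1:189256572-189256601 (−) for Kcnk2 and chr14:20144639-20144668 (−) for Kcnk5. In all 10 members an exon junction falls after base 1 of the capitals of the first filter, so an intron splits the first glycine codon. The middle codon of the first filter encodes phenylalanine in 3 members, Kcnk2, Kcnk12 and Kcnk13, and tyrosine in the other 7. In the second filter it encodes leucine in Kcnk1 and Kcnk6 and phenylalanine in the other 8. Over the 45 pairs of members, coding identity ran from 53.1% to 69.6% of the shorter sequence (median 59.8%). Among pairs of the same subfamily, Kcnk2 and Kcnk10 stood at 69.6%, Kcnk12 and Kcnk13 at 68.6%, Kcnk3 and Kcnk9 at 66.9% and Kcnk1 and Kcnk6 at 64.1%. Kcnk4 was at 62.6% with Kcnk10 and at 59.0% with Kcnk2, below the median. Kcnk3 and Kcnk9 share 1 of their 31-base words, and no other pair of members shares any. Some words are shared with genes outside the family. Those found in no other gene made up 84.9% of Kcnk4, 89.4% of Kcnk2, 93.3% of Kcnk1, 94.0% of Kcnk3 and 96.3% of Kcnk6, and 99.6% to 100% of the other 5 members.

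The libraries held 35684781 expected counts (replicate 1) and 38701795 (replicate 2). Markers fitted the labelled tissue. All 9 glomerulosa markers, 7 fasciculata markers and 10 chromaffin markers were detected, with medians of 24.9, 772 and 56.0 TPM, while none of 6 kidney markers was, and Umod, Slc12a1, Nphs1 and Slc34a1 were listed at 0. Macrophage (8 of 8), endothelial (6 of 6), adipocyte (6 of 6), smooth muscle (4 of 5) and glial (3 of 6) markers were also present, and none of 4 lymphocyte markers was detected. The adipocyte markers were high, with a median of 220 TPM and sums of 1899 and 1883 TPM in replicates 1 and 2. The tissue thus held fat as well, and which cells held the RNA of each K2P gene was not tested. As a ratio, the marker lists differed most between the libraries for skeletal muscle, whose 5 markers summed to 246 TPM in replicate 1 and 2.02 TPM in replicate 2. The 4 liver markers summed to 30.3 and 1.50 TPM. Chromaffin markers summed to 1519 and 1145 TPM, and 9 of 10 were lower in replicate 2. Of all 11662 detected nuclear protein-coding genes, 4786 were lower and 6831 higher in replicate 2. In such bulk tissue, fewer cells of a type and less RNA per cell cannot be told apart.

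Kcnk3 dominated the family, and 4 of the 10 members reached 1 TPM in both libraries, beside 53.0% of all nuclear protein-coding genes (11662 of 22015). In order of mean level these were Kcnk3, Kcnk9, Kcnk2 and Kcnk5, a pair of TASK channels, a TREK channel and the alkaline-activated TASK-2. Kcnk3 alone held 94.8% of the summed TPM of the 10 members in replicate 1 and 95.3% in replicate 2. The remaining members, Kcnk6, Kcnk1, Kcnk12, Kcnk13, Kcnk4 and Kcnk10, stood between 0.02 and 0.62 TPM.

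**Figure D1:**
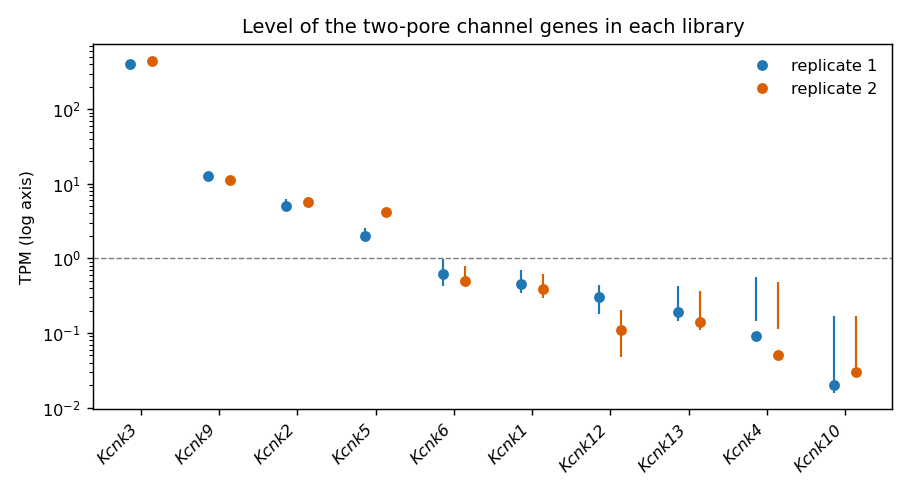
TPM of the 10 K2P genes (log axis) in replicates 1 and 2, with the genes ordered by mean level. Points are the deposited TPM, vertical lines the deposited bounds of the TPM interval, and the dashed line is 1 TPM. Kcnk3 stands alone at the top, at 397.75 and 447.16 TPM, and 6 genes lie below the line in both libraries.

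Kcnk3 encodes TASK-1, a channel closed by extracellular acid. The gene (ENSMUSG00000049265.7) lies at chr5:30588170-30625271 (+) and has a coding transcript of 2 exons. Its level was 397.75 TPM in replicate 1 and 447.16 TPM in replicate 2 (422 ± 34.9 TPM), from 51336 and 60957 expected counts. That placed it 56th of the 22015 nuclear protein-coding genes by mean TPM. Both libraries were high, and replicate 2 was slightly higher, with a log2 ratio of 0.17 on the TPM + 0.1 scale. The share of all counts taken by Kcnk3 was 1.09 times as large in replicate 2 (exact 95% interval 1.08 to 1.11). Such intervals cover counting error only, since they are computed from the counts and the library totals alone. No molecular identifiers are stated. The coding transcript Kcnk3-201 held 96.0% and 94.3% of the TPM of the gene in the alignment-derived transcript table, and 100% and 97.6% in the table derived straight from the reads. The rest belonged to Kcnk3-202, a noncoding record of 507 bases that starts within the intron and lacks exon 1. A gene of the opposite strand, Gm9899, overlaps Kcnk3 and held 679 and 724 counts. It shares 200 of the 31-base words of Kcnk3. Whether the counting used strand is not given in the sources used here, so reads of the pair are uncertain, though Gm9899 had few beside the counts of Kcnk3.

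Kcnk9 encodes TASK-3, which can pair with TASK-1 in mixed channels. It lies at chr15:72501089-72546340 (−; ENSMUSG00000036760.7) and has 1 annotated transcript of 12300 bases, 11956 of them in exon 2. Its level was 12.85 TPM in replicate 1 and 11.17 TPM in replicate 2 (12.01 ± 1.19 TPM), from 5654 and 5273 counts. Kcnk9 was lower in replicate 2 (log2 ratio -0.20), against the direction of Kcnk3, and its count share was 0.860 times that of replicate 1 (0.828 to 0.893). Within a library, the TPM of Kcnk3 was 30.95 times that of Kcnk9 in replicate 1 and 40.0 times in replicate 2 (35.5 ± 6.42). The read-derived table gave ratios of 32.0 and 41.8. Per length, then, Kcnk3 exceeded Kcnk9 by more than 30 times in both libraries and in both quantifications. The transcript of Kcnk9 is longer than the 3811 bases of Kcnk3-201, so the gap in counts was smaller than the gap in TPM.

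Among the TREK and TRAAK channels, which open to stretch, warmth and lipids, only Kcnk2 was detected. Kcnk2 encodes TREK-1 and spans chr1:189207930-189402273 (−; ENSMUSG00000037624.15). It stood at 5.08 and 5.65 TPM in replicates 1 and 2 (5.37 ± 0.403 TPM), from 502 and 552 counts. The libraries were close, with a log2 ratio of 0.15 on the TPM + 0.1 scale and a count share 1.01 times as large in replicate 2 (0.897 to 1.15). The sign of that small difference turned with the scaling, since counts scaled by edgeR TMM gave -0.01. Kcnk3 exceeded Kcnk2 by 78.3 and 79.1 times in TPM. Kcnk9 stood 2.53 and 1.98 times above Kcnk2. A processed pseudogene on the same strand, Pdcd5-ps, overlaps Kcnk2 with 47.34 and 45.85 counts.

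Most of the TPM of Kcnk2 was assigned, in the alignment-derived table, to a transcript that encodes no complete channel. Kcnk2-203, annotated as a target of nonsense-mediated decay, the pathway that degrades messages with early stop codons, held 2.86 and 3.62 TPM in replicates 1 and 2. These are 56.3% and 64.1% of the gene. In the read-derived table it held 30.1% and 47.9%. It was the leading Kcnk2 transcript in both libraries of both tables, but its share differed between the tables by more than between the libraries in the alignment-derived table. In the read-derived table its lead in replicate 1 was narrow, since Kcnk2-201 held 26.1% there. The read-derived share of Kcnk2-201 was 0.07% in replicate 2, so these shares were unstable between the libraries. Transcripts that hold both filters took 43.7% and 35.9% of the alignment-derived TPM and 64.7% and 52.1% of the read-derived TPM.

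Kcnk2-203 starts at the most upstream annotated start, chr1 position 189402273, and leaves out the exon at chr1:189295594-189295711 (−), which has 118 bases. That length is not a multiple of 3 (remainder 1), so leaving the exon out shifts the reading frame, and the annotated coding sequence of Kcnk2-203 is 459 bases with neither filter, against 1245 bases in Kcnk2-201. The exon is shown because it ends in the first base of the first filter, which is in capitals.
Kcnk2 exon absent from Kcnk2-203: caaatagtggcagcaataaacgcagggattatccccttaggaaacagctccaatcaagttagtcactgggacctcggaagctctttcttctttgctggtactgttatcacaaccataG
The junctions that tell the transcripts apart follow, 15 bases on each side, with the downstream exon in capitals.
Kcnk2-201, into the exon: gacgaactcatccagCAAATAGTGGCAGCA
Kcnk2-201, out of the exon: ttatcacaaccatagGATTTGGAAACATCT
Kcnk2-203, across the missing exon: gacgaactcatccagGATTTGGAAACATCT
Reads over these junctions were not analysed here, and the tables give only the estimated division of reads among transcripts. Of the 3101 words of 31 bases in Kcnk2-203, 83 occur in no other Kcnk2 transcript, so few reads can assign it directly. The distal start is shared with Kcnk2-208 and Kcnk2-209, whose annotated last exons are 364 and 355 bases, while that of Kcnk2-203 is 2171 bases. No transcript in the annotation combines the distal start, the 118-base exon and the long last exon. Whether reads of such a transcript were assigned to Kcnk2-203 was not tested.

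**Figure D2:**
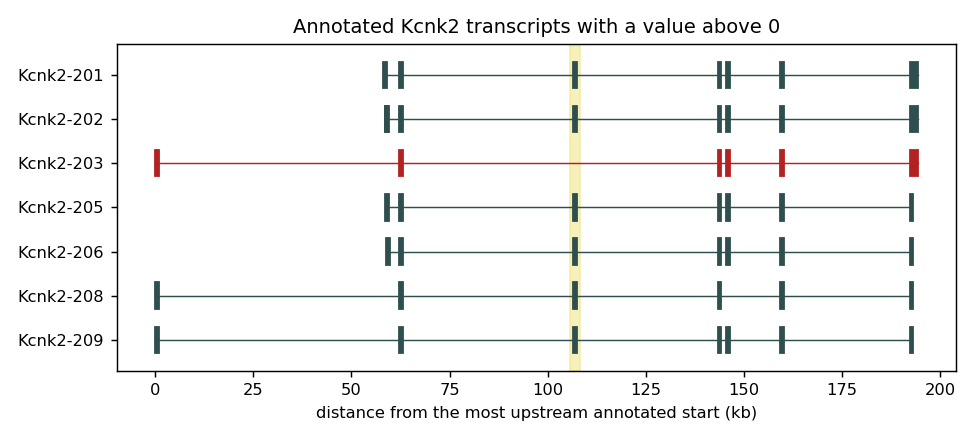
Exons (boxes, drawn wider than scale where short) of the 7 annotated Kcnk2 transcripts with a value above 0 in any table, against distance in kilobases from the most upstream annotated start. The yellow band marks the 118-base exon, which only Kcnk2-203 (red) leaves out among the transcripts shown.

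**Figure D3:**
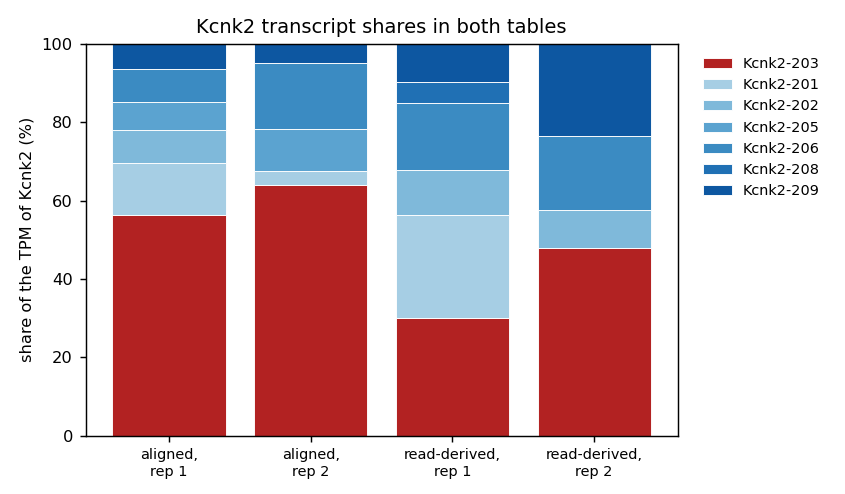
Share of the TPM of Kcnk2 (percent) held by each transcript in the alignment-derived and read-derived tables of both replicates, stacked to 100%. Kcnk2-203 (red) holds 56.3% and 64.1% in the alignment-derived bars and 30.1% and 47.9% in the read-derived bars.

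The relatives of Kcnk2 were near the limit of the depth. Kcnk4 encodes TRAAK, a channel best known from neurons, and lies at chr19:6923966-6934515 (−; ENSMUSG00000024957.9). Its level was 0.09 and 0.05 TPM in replicates 1 and 2, from 8 and 5 counts. In the alignment-derived table all of this belonged to Kcnk4-207, a noncoding record of the 3′ part of the gene. In the read-derived table Kcnk4-205 led in replicate 1 with 46.5% and the coding Kcnk4-201 in replicate 2 with 69.6%, so no transcript of Kcnk4 can be named as leading. Kcnk10 encodes TREK-2 (chr12:98429437-98578310, −; ENSMUSG00000033854.10) and stood at 0.02 and 0.03 TPM, from 1 and 9 counts. Its count share was 8.30 times as large in replicate 2, with an interval of 1.15 to 364. The TPM differ far less because the 1 count of replicate 1 was placed on Kcnk10-203, of 1357 bases, and the 9 of replicate 2 on Kcnk10-202, of 7460 bases.

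Kcnk5 was the member that differed most between the libraries among those with 200 or more summed counts. It encodes TASK-2, a channel opened by alkaline pH and known from kidney tubules, and lies at chr14:20140057-20181809 (−; ENSMUSG00000023243.9). Its level was 2.00 TPM in replicate 1 and 4.22 TPM in replicate 2 (3.11 ± 1.57 TPM), from 237 and 537 counts. The log2 ratio was 1.04, and the count share was 2.09 times as large in replicate 2 (1.79 to 2.44). Of the 4 members with 200 or more summed counts, Kcnk5 was the 1 that was at least 2-fold apart, where 0.759% of nuclear protein-coding genes with that many counts were (88 of 11599, with 34 higher and 54 lower in replicate 2). By this ratio Kcnk5 ranked 26th from the top of the 11599. The read-derived table gave 3.85 and 7.13 TPM, a log2 ratio of 0.87, just short of 2-fold, and TPM + 1 gave 0.80. Its coding transcript Kcnk5-201 held all of the alignment-derived TPM in both libraries and 83.1% and 87.8% of the read-derived TPM. All 3374 of the 31-base words of Kcnk5 are found in no other gene. Skeletal muscle and liver markers were higher in replicate 1, the library in which Kcnk5 was lower, and chromaffin markers were also higher there. Glial markers went the other way, with sums of 8.69 and 11.19 TPM in replicates 1 and 2. Of the 3 detected glial markers, 2 were higher and 1 lower in replicate 2. The part of any of these cell types in the difference was not tested.

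**Figure D4:**
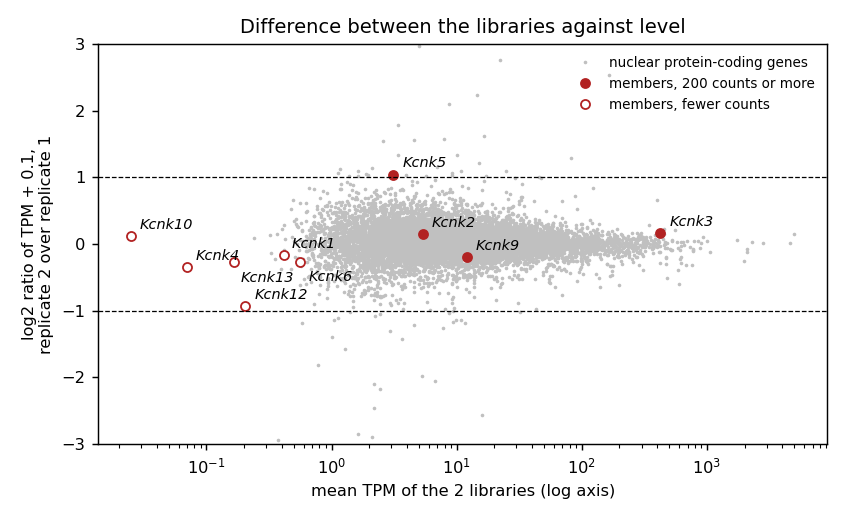
Log2 ratio of TPM + 0.1, replicate 2 over replicate 1, against mean TPM (log axis) for the 11599 nuclear protein-coding genes with 200 or more summed counts (grey) and the 10 members (red, open below 200 counts). Dashed lines mark 2-fold differences, and 27 grey genes lie beyond the plotted range. Kcnk5 sits just above the upper line, and Kcnk2, Kcnk3 and Kcnk9 lie near 0.

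The TWIK channels, which pass weak inward-rectifying currents, were below 1 TPM. Kcnk6, which encodes TWIK-2 (chr7:29221926-29232515, −; ENSMUSG00000046410.10), stood at 0.62 and 0.50 TPM in replicates 1 and 2 (0.56 ± 0.0849 TPM). Its counts were 70 and 77, a share 1.01 times as large in replicate 2 (0.724 to 1.42), although the TPM was lower there. The short noncoding Kcnk6-202 took 25.8% of the TPM in replicate 1 from 4.12 counts and none in replicate 2, which moved the TPM without the counts. Kcnk1 encodes TWIK-1 (chr8:125995170-126030685, +; ENSMUSG00000033998.9) and stood at 0.45 and 0.39 TPM (0.42 ± 0.0424 TPM), from 34 and 32 counts. The difference in count share, 0.868 times in replicate 2, was within counting error (0.518 to 1.45).

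The THIK channels, inhibited by the anaesthetic halothane, were also below 1 TPM. Kcnk12, which encodes THIK-2 (chr17:87745801-87797994, −; ENSMUSG00000050138.8), stood at 0.30 and 0.11 TPM in replicates 1 and 2, from 20 and 8 counts. Its log2 ratio of -0.93 on the TPM + 0.1 scale was the lowest of the 10 members, while in the read-derived table Kcnk4 was lower (-1.55 against -1.11), and its count share was 0.369 times that of replicate 1 (0.141 to 0.874). Kcnk13 encodes THIK-1, a channel known from microglia, and lies at chr12:99964499-100062682 (+; ENSMUSG00000045404.16). It stood at 0.19 and 0.14 TPM, from 20 and 16 counts, and its count share was 0.738 times as large in replicate 2 (0.357 to 1.50). Its TPM was placed on Kcnk13-201 in the alignment-derived table and mainly on Kcnk13-202 in the read-derived table (81.6% and 79.3%), both of which encode 1218 bases with both filters. Microglia are related to tissue macrophages, and the 8 macrophage markers of the gland summed to 83.4 and 75.0 TPM. Whether macrophages held the RNA of Kcnk13 was not tested.

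In the order of mean TPM, both libraries of each gene lay above both libraries of the next for every neighbouring pair except Kcnk12 and Kcnk13, whose values overlapped. The deposited TPM bounds separated Kcnk3 from Kcnk9, Kcnk9 from Kcnk2, Kcnk2 from Kcnk5 and Kcnk5 from Kcnk6 in both libraries. From Kcnk6 downward they separated neighbours in no library, apart from Kcnk1 and Kcnk12 in 1 library, so the order of most neighbours among the 6 lower genes was not resolved at this depth. The bounds are the authors' values, and the TPM of 3 members lay outside them, Kcnk3 and Kcnk4 in both libraries and Kcnk10 in replicate 2. In the read-derived table every member stood at the same place in the order. The remaining K2P genes of the tables, Kcnk7, Kcnk15, Kcnk16 and Kcnk18, were listed at 0 in both libraries and both quantifications. A count of 0 allows up to 3 counts, or 0.0841 and 0.0775 CPM, the counts scaled to the library total, in replicates 1 and 2.

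Genes that act with K2P channels on the membrane potential and calcium of glomerulosa cells were mostly present among those reported here, a list shortened after it was drawn up. Of 14 such genes 13 were detected, beside 53.0% of all nuclear protein-coding genes. The median of the 14 was 16.3 TPM, beside 1.67 TPM over all nuclear protein-coding genes and 10.28 TPM over the detected ones. Each of the 14 was below Kcnk3. These values depend on which genes were kept in the list, so they describe only the genes named. The calmodulin genes Calm2 (157 and 164 TPM) and Calm3 (70.9 and 70.5 TPM) were the highest of the 14. Itpr1, a calcium release channel of internal stores, stood at 53.8 and 50.6 TPM, and the calcium channel gene Cacna1c at 20.1 and 25.9 TPM. None of the 13 was 2-fold apart between the libraries, beside 0.759% of nuclear protein-coding genes with enough counts for this comparison. With so low a share, finding none among so few genes says little. The median log2 ratio of the 13 was 0.06, beside 0.04 over all detected genes. The potassium channel gene Kcnj5 was the 1 that was not detected, at 0.12 and 0.32 TPM. In the read-derived table it stood at 1.65 and 2.48 TPM, past 1 TPM in both libraries, so its detection depends on the quantification. A further calcium channel gene, Cacna1h, stood at 18.0 and 17.84 TPM, above Kcnk9, and the chloride channel gene Clcn2 at 14.6 and 20.1 TPM. These last 3 genes were picked out after their values were seen.

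**Figure D5:**
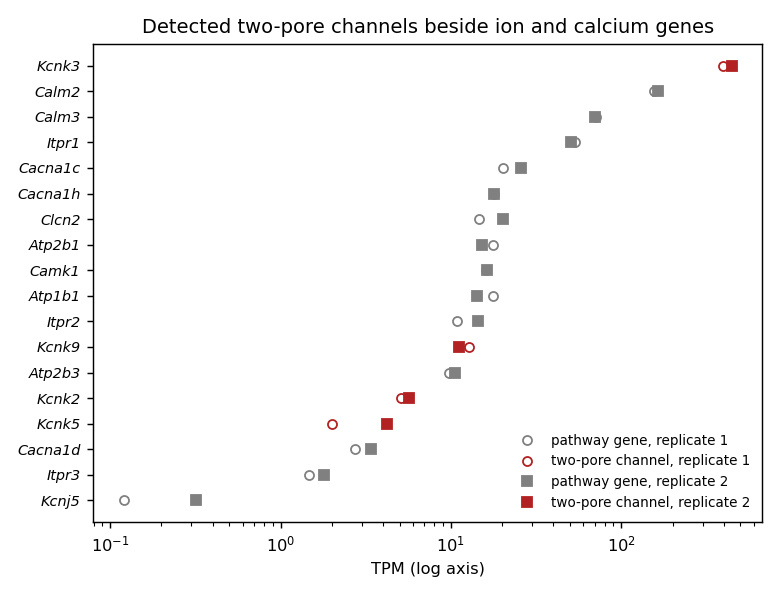
TPM (log axis) in replicates 1 and 2 of the 4 detected K2P genes (red) and the 14 genes of membrane potential and calcium signalling (grey), ordered by mean. Kcnk3 is above all 14, and by mean TPM Kcnk2 and Kcnk5 are above only Cacna1d, Itpr3 and Kcnj5 of these.

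Partners and regulators of K2P proteins were mostly present among those reported here, a list chosen with earlier results of these data known. Of 12 such genes 11 were detected, beside 53.0% of all nuclear protein-coding genes, and the median of the 12 was 25.3 TPM. These values depend on which genes were kept in the list, so they describe only the 12 genes. None of the 11 was 2-fold apart between the libraries, beside 0.759% of nuclear protein-coding genes with enough counts for this comparison. Finding none among so few genes therefore says little. The highest of the 12 were Ywhaz (133 and 133 TPM) and Ywhab (83.1 and 80.1 TPM), whose 14-3-3 proteins bind TASK channels and aid their export to the cell surface. S100a10, which encodes a binding partner of TASK-1, stood at 58.9 and 50.5 TPM. Akap5, which encodes a scaffold known to bind TREK-1, was the 1 not detected, at 0.16 and 0.14 TPM, and was picked out for that.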

How the data were processed

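Per the text beside the deposited files, reads were assigned to mm10 with GENCODE M21. The gene table and 1 transcript table of each library came from a transcriptome alignment and hold, per the file headers, the authors' expected counts (estimated, not all whole) and TPM in the columns RSEM writes. The other transcript table was made from the reads directly, with estimated counts and TPM in the columns kallisto writes. The deposited TPM bounds were read as a signal, and their confidence level is not stated. The aligner, tool versions, filters and strand use in counting were not given in the sources used here. Deposited TPM cover all entries, and nuclear protein-coding genes held 31.2% of them in both libraries. Reads of CAST/EiJ origin may map differently to mm10, which was not tested, and allele of origin was not analysed here.

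Symbols were matched to gene identifiers through the read-derived table. Members were detected at 1 TPM or more in both libraries. Log2 ratios used TPM + 0.1, and genes were counted as 2-fold apart only with 200 or more summed counts. Intervals of count shares are exact conditional 95% intervals, computed from rounded expected counts. Coding sequences, junctions and 31-base words came from the GENCODE M21 transcripts. Alternatives used edgeR 4.0.16 TMM and DESeq2 1.42.0 size factors (R 4.3.3), other thresholds, the read-derived table, TPM rescaled to nuclear protein-coding genes, and each library alone. Tables were handled in Python 3.11.15 with pandas 2.3.3, scipy 1.17.1 and Biopython 1.88. The rule for named genes took all 10 members, the other genes of the family, the 4 highest genes of each list (given here for the functional lists, 3 of them for the regulators) and markers of other cells at 0. The 2 functional lists and the 12 marker lists, like the members, were chosen with earlier results of these data known. Some genes first placed in the functional lists are not reported here and entered none of their counts. No gene was named for likeness of pattern, because 2 libraries give 1 difference per gene.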

Additional observations from a re-analysis of the deposited data

How the results depend on the processing

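The count of members 2-fold apart between the libraries was 1 and became 0 with TPM + 1 and 0 in the read-derived table, where the log2 ratio of Kcnk5 was 0.80 and 0.87. It stayed at 1 with lower count filters and with counts scaled by edgeR TMM or DESeq2. The share of Kcnk2-203 in Kcnk2 was 60.2% on average and 39.02% in the read-derived table, and 56.3% to 64.1% over the single libraries. Detected members numbered 4 to 6 across alternatives, with 5 in the read-derived table and 6 with TPM rescaled to nuclear protein-coding genes. Levels in TPM moved beyond the spread of the libraries for all 10 members under these 2 scales, a shift that is not particular to the members. Rescaling raises every gene of a library by 1 factor, so the order within a library cannot change. Over all detected genes the read-derived TPM was also higher, by a median log2 ratio of 0.79 in each replicate. The order of the members held there too. The cut of 1 TPM stayed the same on both scales, so it was easier to reach. Of 50 alternative log2 ratios of members 48 kept their sign, and the exceptions were those of Kcnk2 on scaled counts. A kept sign did not mean a kept size. The ratio of Kcnk3 moved beyond counting error, from 0.17 to 0.11 with either TMM or DESeq2 scaling. Among members with few counts, TMM took Kcnk10 from 0.12 to 2.55 and Kcnk12 from -0.93 to -1.41. It took Kcnk6 from -0.26 to -0.0049. The leading transcript by mean share was the same for 8 of 10 members in the read-derived table. Kcnk9 and Kcnk12 have 1 annotated transcript each, so they could not differ. Kcnk10 was counted as the same, but in both tables Kcnk10-203 led in replicate 1 and Kcnk10-202 in replicate 2. Their mean shares were tied in the alignment-derived table, so no transcript of Kcnk10 can be named as leading. With a single library Kcnk5 stood at 2.00 or 4.22 TPM and Kcnk12 at 0.11 or 0.30 TPM. A 2-fold count needs both libraries, so it has no value with either left out. No paired analysis was possible because the labels give 1 group. Depth limits the 6 members with fewer than 100 counts in a library.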
